A study of Mus musculus with 13 samples.

Results

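Granule neurons of the dentate gyrus that carry transcripts of a set of genes led by Trhr and Lgr6, though often not of both, were examined among single nuclei of the mouse hippocampus. A nucleus was selected when it had at least 500 genes and at most 5% mitochondrial unique molecular identifiers (UMIs, each standing for 1 captured transcript molecule), at least 1 UMI of Prox1, at least 2 of the 6 granule genes Prox1, C1ql2, Glis3, Trpc6, Stxbp6 and Plk5, and fewer than 2 UMIs of Gad1 and Gad2 together. It also had to hold at least 2 of the 4 genes Trhr, Lgr6, Gmnc and P2rx5, and at least 2 UMIs of Trhr, Lgr6 and Gmnc together. This gave 1945 nuclei, which were 5.12% of the 37973 nuclei that met the granule conditions and 1.84% of the 105427 retained nuclei. They are called Trhr/Lgr6 granule nuclei below, and the other 36028 nuclei that met the granule conditions are called other granule nuclei. Since the selection used measured counts of these cells, every difference between the selected and the other granule nuclei is given as a description without a test.

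Granule neurons are the principal excitatory cells of the dentate gyrus. They receive the input from entorhinal cortex, send mossy fibres to CA3 and the hilus, and depend on the transcription factor Prox1 for their identity. Along the long axis of the hippocampus, dorsal and ventral granule neurons differ in gene expression, and the ventral pole is the part most tied to emotional and stress-related behaviour. Trhr encodes the receptor of thyrotropin-releasing hormone, which signals through Gq, phospholipase C and protein kinase C. Lgr6 encodes a receptor of R-spondins, secreted proteins that strengthen Wnt signalling. Gmnc encodes a geminin coiled-coil protein best known as an early switch of multiciliated cells, and P2rx5 encodes a subunit of ATP-gated cation channels.

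The nuclei came from whole frozen hippocampus of female hybrid mice, given as C3B6F1 in the series text and as C3HB6F1 in the sample labels, with 13 libraries of 10x Genomics 3' chemistry. Young mice of 5 months fed ad libitum gave 3 libraries, and old mice of 24 months fed ad libitum gave 3 (numbered 1, 2 and 4). Old mice of 24 months restricted from 20 months of age (acute restriction) gave 3 libraries, and old mice of 24 months restricted from 5 months of age (long-term restriction) gave 4. Each library is treated as 1 mouse, which the labels do not state, so p-values measure the spread between these samples. The degree of restriction, transgenes and pooling of animals were not given in the sources used here. The design asks what changes between young and old mice fed ad libitum, what each regimen of restriction changes in old mice, and how the regimens differ.

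Libraries differed in depth. The Trhr/Lgr6 granule nuclei had a median of 9663 UMIs and 3346 genes, and other granule nuclei had 6567 UMIs and 2638 genes. By library, the young medians of the selected nuclei were 9152.5, 5671 and 7584.5 UMIs, and the old ad libitum medians were 17107, 9743 and 11383. For acute restriction the medians were 9364, 9374.5 and 8476 UMIs, and for long-term restriction 9419.5, 8889, 12420.5 and 10865. The young and the old ad libitum medians did not overlap, so depth and age cannot be told apart in this contrast. Of 104066 distinct barcodes, 1351 occurred in more than 1 library, among them the barcodes of 45 selected nuclei, and 2 barcodes were selected in more than 1 library. A doublet caller marked 217 of the selected nuclei (11.2%), 10.9% of the other granule nuclei and 7.01% of all retained nuclei.

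The 4 genes of the selection overlapped only in part within the selected nuclei. Trhr was detected in 81.5% of them, Gmnc in 63.6%, Lgr6 in 57.2% and P2rx5 in 21.2%, against 7.32%, 5.49%, 5.66% and 2.56% of other granule nuclei. Exactly 2 of the 4 genes were detected in 1529 nuclei, 3 in 375 and all 4 in 41. Trhr and Lgr6 were detected together in 778 nuclei (40.0%), Trhr without Lgr6 in 807 and Lgr6 without Trhr in 335. The joint count of Trhr, Lgr6 and Gmnc was 2 UMIs in 918 nuclei (47.2%), 3 in 526, 4 in 250 and 5 or more in 251, with a maximum of 11. Just outside the threshold lay 1307 granule nuclei with at least 2 UMIs of 1 gene alone, 346 with 2 genes but a joint count of 1, and 4999 with a joint count of 1 from 1 gene. The selection therefore rests on low counts near its threshold.

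In mm10 coordinates of the GENCODE annotation, Trhr lies on chromosome 15 from 44196135 to 44235912 on the plus strand and Lgr6 on chromosome 1 from 134983301 to 135105276 on the minus strand. Gmnc lies on chromosome 16 from 26913553 to 26991652 on the minus strand and P2rx5 on chromosome 11 from 73160421 to 73172685 on the plus strand. No other annotated gene overlaps any of these 4. Prox1, on chromosome 1 from 190118035 to 190170714 on the minus strand, is overlapped on the opposite strand by Gm28172 and Prox1os. Whether counting used the strand was not given in the sources used here. It is therefore not known here whether reads of Prox1 and of these neighbours were counted apart.

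Selected nuclei were set beside other granule nuclei of the same library drawn at up to 5 per selected nucleus within the same range of UMIs, called matched granule nuclei here. Fewer than 5 were at hand in 9 of 13 libraries, with 374 for 110 selected nuclei in long-term replicate 3 and 336 for 93 in old ad libitum replicate 1, where the matched median of 15666.5 UMIs stayed below the 17107 of the selected nuclei. Values are CPM (UMIs of a gene scaled to 1e6 UMIs) of the summed nuclei of each mouse, and differences are means over 13 mice ± SD of log2(CPM + 5). The genes that made the selection showed its size. Trhr stood at a mean of 126 CPM against 16.3 in matched nuclei (2.63 ± 0.34), Gmnc at 86.9 against 10.5 (2.55 ± 0.16), Lgr6 at 71.8 against 10.8 (2.28 ± 0.19) and P2rx5 at 24.0 against 4.59 (1.57 ± 0.32). Of the granule genes, Prox1, Glis3 and Trpc6 differed much less. Prox1 stood at 345 CPM against 297 (0.21 ± 0.11) and Glis3, a zinc finger factor, at 1039 against 848 (0.29 ± 0.08), while Trpc6, a cation channel, was lower at 309 against 418 (-0.44 ± 0.24). C1ql2, Stxbp6 and Plk5 were detected in 19.7%, 95.4% and 17.7% of the selected nuclei. In all other granule nuclei, which were shallower, these shares were 16.8%, 95.8% and 21.9%. Calb1, the calcium buffer calbindin of mature granule cells and not part of the selection, stood at 129 against 104 (0.30 ± 0.14) and was higher in 13 of 13 mice.

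The label calls these nuclei ventral-type, and they were set beside a list of 10 genes known from ventral hippocampus or dentate gyrus. The selection did not use these genes, but the list was chosen with earlier results of these data known. It is therefore no independent check of the label. Of the 6433 genes with a mean of at least 20 CPM in the higher of both classes, 62 (0.964%) were higher in the selected nuclei in 13 of 13 mice with a mean difference of at least 0.5, and 109 (1.69%) were lower by the same rule. Of the ventral list, 6 genes reached 20 CPM and 2 were higher by this rule: Lypd1, which encodes a modulator of nicotinic receptors, stood at 124 CPM against 77.7 (0.63 ± 0.22), and Tox3, a nuclear HMG-box factor, at 75.1 against 45.3 (0.67 ± 0.23). Nr2f2, the nuclear receptor COUP-TFII, lay just under the floor at 19.9 CPM against 12.7 and was higher in 13 of 13 mice (0.47 ± 0.37). Efnb2, an ephrin ligand, was higher in 12 of 13 mice (0.28 ± 0.20). The remaining 6 did not follow. Cck, the neuropeptide cholecystokinin, differed by 0.04 ± 0.22, Nrp2, a semaphorin receptor, by -0.0038 ± 0.14 and Grp, gastrin-releasing peptide, by 0.10 ± 0.23. Resp18 differed by 0.21 ± 0.33 and Dcn, the proteoglycan decorin, by -0.18 ± 0.66, both below the floor, and Cadm2, a synaptic adhesion molecule, was lower in 13 of 13 mice (-0.37 ± 0.05). Over the 6 genes the median difference was 0.16, beside 0.0008 over all 6433 genes.

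On the dorsal side, 2 of 6 listed genes at the floor were lower, in a list chosen with the same knowledge of these data. Gsg1l, an auxiliary subunit of AMPA receptors, stood at 45.4 CPM against 93.1 (-1.01 ± 0.36), and Spata13, an exchange factor of small GTPases, at 21.7 against 45.5 (-0.94 ± 0.27). Col6a1, a collagen chain below the floor, stood at 4.03 against 11.3 (-0.85 ± 0.31). The best-known dorsal pair did not separate the nuclei in the same way. Lct, the lactase gene, was lower in 11 of 13 mice (-0.29 ± 0.30) and Dsp, the desmosomal protein desmoplakin, was higher in 8 of 13 (0.13 ± 0.32). The other 2 genes at the floor, Stra6 (61.3 against 55.6 CPM, 0.10 ± 0.23) and Pdzd2 (382 against 388, -0.06 ± 0.25), were close to level, and Penk, below the floor, was lower in 12 of 13 mice (-0.40 ± 0.24). Over the 6 genes the median difference was -0.18. The label ventral-type thus rests on some genes of the ventral list and not on others, and the nuclei are called here by the genes that chose them. The files hold no positions, so no nucleus was placed along the axis.

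Genes were then ranked by mean difference among those with a mean of at least 20 CPM in the class where they were higher. They also had to differ the same way in 13 of 13 mice. Level in the higher class and agreement between the mice were thus part of the choice. The 15 with the largest positive differences, apart from the selecting genes, were led by Ano2, Col23a1 and Scn9a. Ano2, a calcium-activated chloride channel, stood at 74.4 CPM against 25.9 (1.35 ± 0.17) and ranged from 1.04 to 1.69 over the mice. Col23a1, a transmembrane collagen, stood at 148 against 59.0 (1.27 ± 0.22), and Scn9a, a voltage-gated sodium channel, at 97.2 against 39.5 (1.22 ± 0.30). These were followed by the PDZ-domain protein gene Pdzrn4 at 578 against 281 (1.03 ± 0.15), Nhs at 117 against 55.8 (1.00 ± 0.24) and Ecm2, an extracellular matrix protein, at 40.5 against 18.2 (0.95 ± 0.20). Further down came Tcerg1l (0.95), the kinase gene Stk32b (0.95), the background potassium channel gene Kcnk13 (0.91), 4930467D21Rik (0.88), Kcnmb2 (0.85), which encodes a beta subunit of calcium-activated potassium channels, Il33 (0.83), a cytokine of the interleukin-1 family, Lcorl (0.81), Trabd2b (0.78) and the proteoglycan gene Ogn (0.77). For Il33 the smallest value of a mouse was 0.01.

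The largest negative differences were larger and more variable. Sorcs3, a sorting receptor of the VPS10 family, stood at 66.9 CPM against 214 (-1.66 ± 0.48), and its relative Sorcs1 at 23.4 against 77.0 (-1.55 ± 0.56). Tshz2, a zinc finger factor that also marks subicular and cortical neurons, stood at 51.6 against 116 with a wide spread (-1.43 ± 1.09). Then came Gpc6, a glypican (-1.36), Tox, an HMG-box factor (-1.31), Clmp, an adhesion molecule (-1.30), Etl4 (-1.29), the cadherin genes Cdh18 (-1.26) and Cdh20 (-1.24), Rasgrp1, an activator of Ras (-1.26), and Lhfpl3 (-1.21). The last of the 15 were Htr2c, a serotonin receptor (-1.21), Parp8 (-1.20), Ptprm, a receptor phosphatase (-1.18), and Hs6st2, a heparan sulphate sulphotransferase (-1.16).

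**Figure D1:**
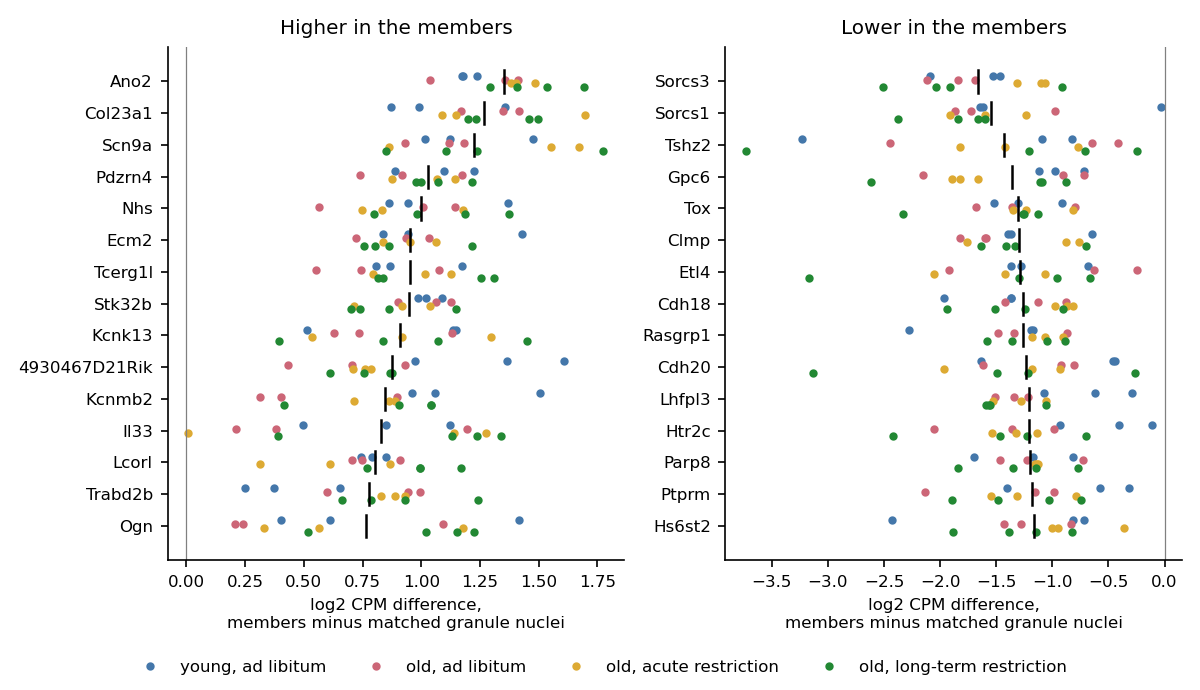
Differences in log2(CPM + 5) between the selected nuclei (members) and matched granule nuclei of the same mouse, 1 point per mouse coloured by group, for 15 genes in each direction. These have the largest mean difference among genes of the same direction in 13 of 13 mice with at least 20 CPM on average in the higher class. The black bar is the mean over 13 mice, and Ano2 (mean 1.35) and Sorcs3 (mean -1.66) lie at the top of their panels.

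Markers of other cells moved with these differences. Summed over 6 CA1 markers, the selected nuclei held a median of 52.4 CPM (25.5 to 108 over the mice) and the matched nuclei 110 (65.5 to 193). For 8 oligodendrocyte markers the medians were 345 CPM (232 to 433) and 444 (267 to 721), for 7 subicular and cortical markers 627 (389 to 851) and 790 (584 to 917), and for 5 oligodendrocyte precursor markers 9.53 (4.26 to 33.8) and 21.4 (14.0 to 31.9). Lists of 7 CA3 genes (34.0 against 49.7 CPM) and 11 immature granule genes (75.2 against 105) were likewise lower, whereas the sums of 6 microglial genes (61.7 against 57.0) and 9 mossy cell genes (73.8 against 69.8) were not. Sums of 7 astrocyte genes (1134 against 1064) and 10 inhibitory neuron genes (1647 against 1719) were each carried by 1 gene, Slc4a4 (876 against 715 CPM) and Adarb2 (1566 against 1636 CPM). The astrocyte genes at the floor had a median difference of -0.30, opposite to their sum, with Slc1a2 at 155 against 217 CPM (-0.46 ± 0.34), and the defining genes Aqp4 (4.05 against 4.11 CPM) and Gfap (1.96 against 2.20) were low on both sides. Leaving nuclei with oligodendrocyte UMIs (at least 2 UMIs over a set of 4 oligodendrocyte genes) out of the comparison nuclei gave 61 higher and 81 lower genes, of which 54 and 77 were among the 62 and 109. Asking for 4 of the 6 granule genes on both sides gave 63 and 76, of which 48 and 67 were shared. The doublet caller marked more of the matched than of the selected nuclei in 13 of 13 libraries, with 8.33% to 27.6% of matched and 1.82% to 18.5% of selected nuclei. With marked nuclei removed on both sides, 68 genes were higher and 79 lower, of which 52 and 69 were among the 62 and 109. The part of doublets and of other cells' RNA in the lower genes beyond these alternatives was not tested.

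The leading genes were also read along the count of the selecting genes. Among granule nuclei of 6000 to 12000 UMIs, those with 0, 1, 2, 3 and 4 or more UMIs of Trhr, Lgr6 and Gmnc numbered 13894, 3518, 1313, 527 and 335, from 13, 13, 13, 12 and 11 mice with at least 10 such nuclei. Their median depth was 7632, 8212, 8557, 8823 and 9198 UMIs, so part of the order in depth remained. Ano2 averaged 17.8 ± 5.54, 37.8, 57.7, 72.4 and 105 ± 30.5 CPM (SD over mice) along these bins. Col23a1 averaged 33.6, 75.8, 116, 133 and 216 CPM. Of the 10 ventral-list genes, some followed the same order, with Tox3 at 43.8 ± 9.28, 50.9, 71.6, 76.5 and 94.3 ± 15.7 CPM, Lypd1 at 74.7, 90.9, 122, 139 and 148 CPM, Nr2f2 at 10.1, 13.1, 18.1, 21.4 and 25.2 CPM and Efnb2 at 17.5, 20.2, 25.2, 35.7 and 39.7 CPM. Dcn was also highest in the last bin (4.51 and 11.1 CPM in the first and last). Cck (32.0 and 29.7), Nrp2 (133 and 112), Grp (9.13 and 12.2) and Resp18 (5.36 and 6.51) had no such order, and Cadm2 ran the opposite way (5986, 5170, 4494, 4169 and 3749 CPM). P2rx5, which these bins did not use, stood at 3.63 ± 1.21, 8.58, 12.01, 18.3 and 22.0 ± 8.21 CPM.

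Genes that were lower in the selected nuclei ran in the opposite order. Sorcs3 averaged 201 ± 50.5, 70.2, 56.4, 37.1 and 28.3 ± 32.7 CPM, with the largest step between 0 and 1 UMI. Gsg1l averaged 118 ± 32.7, 76.8, 61.5, 44.4 and 39.7 ± 24.0 CPM, and Spata13 59.6, 43.1, 25.9, 25.5 and 17.4 CPM. Col6a1 averaged 12.2, 8.79, 8.52, 5.26 and 0.61 CPM, and Penk was highest in the first bin (3.66 CPM, then 0.571 to 1.30). Other genes of the dorsal list did not fall from bin to bin, with Stra6 at 58.2, 67.4, 69.0, 52.6 and 41.7 CPM and Pdzd2 at 393, 393, 409, 361 and 381 CPM. Dsp showed no such order at 33.6, 41.4, 38.3, 36.3 and 37.1 CPM, and Lct stood at 34.0, 34.8, 33.9, 31.1 and 21.9 ± 18.1 CPM. The bins use counts that also made the selection, and Ano2, Col23a1 and Sorcs3 were chosen for their difference across it, so the order of the bin means is a description and does not tell a graded population from separate classes with missed transcripts.

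**Figure D2:**
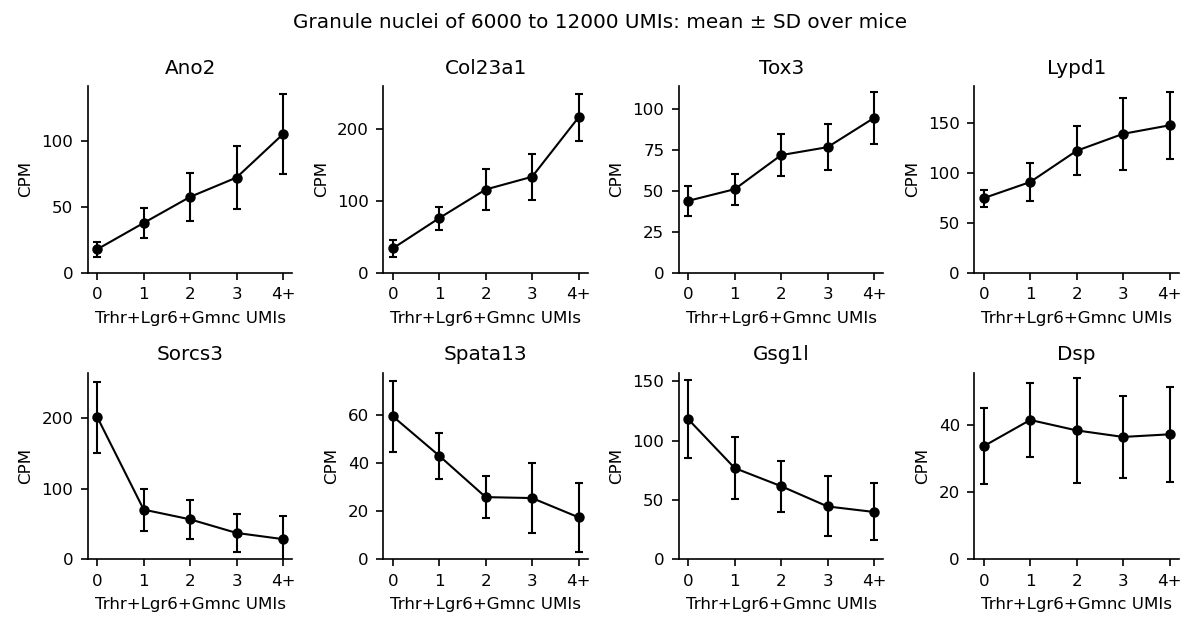
Mean CPM ± SD over mice (13 mice in the first 3 bins, then 12 and 11) of 8 genes in granule nuclei of 6000 to 12000 UMIs, by their joint UMI count of Trhr, Lgr6 and Gmnc. Ano2, Col23a1, Tox3 and Lypd1 are higher in each later bin, Sorcs3, Spata13 and Gsg1l are lower, and Dsp has no order; the lower error bar of Sorcs3 in the last bin is cut at 0.

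The ligands and partners of the selecting receptors were read next, beside 0.964% of all genes higher and 1.69% lower by the rule. Trh, the ligand of Trhr, had 1 UMI over all 1945 nuclei, and Trhr2, the related receptor gene, had 0. Of 9 genes of thyrotropin-releasing hormone signalling at the floor, none was higher and 2 were lower: Plcb4, a phospholipase C, at 8.33 CPM against 24.3 (-1.14 ± 0.44) and Prkcb, a protein kinase C, at 142 against 200 (-0.50 ± 0.24). The G protein gene Gnaq stood at 436 against 435 CPM (0.00 ± 0.10) and the phospholipase C gene Plcb1 at 1381 against 1503 (-0.12 ± 0.05). Trhde, the enzyme that degrades the hormone outside cells, was lower in 12 of 13 mice (-0.65 ± 0.44).

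Of 11 R-spondin and Wnt genes at the floor, none was higher and 2 were lower, beside the same 0.964% and 1.69% of all genes: Rspo2, a ligand of Lgr6, at 11.9 CPM against 21.9 (-0.79 ± 0.64) and Dkk3 at 12.5 against 24.3 (-0.75 ± 0.45). Rspo3, another ligand, stood at 66.5 against 49.1 CPM and was higher in 11 of 13 mice (0.40 ± 0.30). The related receptor Lgr4 stood at 46.7 against 48.4 CPM (-0.06 ± 0.21) and Lgr5 had 4 UMIs over all selected nuclei. Axin2, a common readout of canonical Wnt signalling, stood at 16.1 against 15.4 CPM (0.06 ± 0.19). Tcf7l2, a nuclear effector of the pathway below the floor, stood at 3.03 against 11.9 CPM (-1.01 ± 0.40).

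Most genes of the P2X family and of multiciliation were too low to be read. None of the other P2X genes reached 20 CPM, and the most counted of them, P2rx4, stood at 6.55 against 8.68 CPM (-0.25 ± 0.26). Foxj1, a factor of motile cilia, had 7 UMIs over all selected nuclei and Ccno, a cyclin of the multiciliation programme, had 45. Mcidas, which acts beside Gmnc in multiciliated cells, had 30 UMIs and was higher in 12 of 13 mice at 1.42 against 0.572 CPM (0.20 ± 0.21). Rfx3, a ciliary transcription factor that granule neurons express widely, stood at 2111 against 1699 CPM (0.32 ± 0.08) and was higher in 13 of 13 mice without reaching 0.5.

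Adhesion and guidance genes, the longest list at the floor, held the most lower genes by number but not by share (of CA1 genes, 2 of 3 were lower). Of 42 at the floor, 10 were lower and none was higher by the rule, beside 1.69% and 0.964% of all genes. The lower ones were the cadherins Cdh18, Cdh20 and Cdh7, the protocadherin Pcdh7 (143 against 305 CPM, -1.10 ± 0.27), the semaphorins Sema3e (-0.93 ± 0.41) and Sema6d (331 against 571 CPM, -0.78 ± 0.15), the netrin receptor Unc5d (-0.79 ± 0.20), the Slit receptor Robo1 (-0.84 ± 0.44), the ephrin receptor Epha5 (-0.51 ± 0.13) and Ntng1. Others of the list were higher in 13 of 13 mice by less than 0.5, such as Slit1 (463 against 370 CPM, 0.31 ± 0.08) and the netrin receptor Dcc (0.25 ± 0.12).

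Channel and receptor lists held few genes past the rule, which 0.964% of all 6433 genes passed as higher and 1.69% as lower. Of 24 potassium channel genes, Kcnn3, a small-conductance calcium-activated channel, was higher (0.56), and Kcnq5 (-1.04) and Kcnc2 (-1.15), both voltage-gated, were lower. None of 12 GABA receptor genes differed by the rule, and of 20 glutamate receptor genes only Grm3, a metabotropic receptor, was lower (-0.97). Of 9 receptors for neuromodulators, the muscarinic receptor gene Chrm3 (-1.02 ± 0.72) and Htr2c were lower. Npy2r, a receptor of neuropeptide Y, was higher in 13 of 13 mice at 24.4 against 16.5 CPM (0.45 ± 0.26). Bdnf, the neurotrophin, stood at 30.1 against 59.2 CPM (-0.89 ± 0.30), and Ntf3, the related neurotrophin gene, at 79.0 against 62.6 (0.31 ± 0.22). The glucocorticoid receptor gene Nr3c1 (-0.23 ± 0.14) and the mineralocorticoid receptor gene Nr3c2 (0.09 ± 0.12) differed little, and Sgk1, a kinase induced by glucocorticoids, was lower (-0.68 ± 0.17). None of 12 other granule genes differed by the rule, with a median of 0.13.

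The selected nuclei differed among themselves. Summed over nuclei, those with Trhr and without Lgr6 (807 nuclei, median 9551 UMIs) held 82.6 CPM of Ano2, 112 of Scn9a, 138 of Nhs and 53.1 of Ecm2. Those with Lgr6 and without Trhr (335 nuclei, median 9469 UMIs) held 52.6, 63.4, 74.9 and 22.3 CPM of the same genes. Of the ventral list, Tox3 (85.4 and 50.9 CPM), Nr2f2 (25.0 and 10.9), Efnb2 (33.6 and 16.9), Grp (11.9 and 2.57), Resp18 (11.1 and 2.29) and Dcn (10.3 and 3.14) had the same order, the last 3 on 8 to 11 UMIs in the second subset. Lypd1 (129 and 107 CPM) and Nrp2 (128 and 128) were closer, as was Col23a1 (148 and 130), and Cck (36.8 and 43.1) and Cadm2 (4020 and 4635) were lower in the first subset. Of the dorsal list, Lct (17.7 and 43.4 CPM), Dsp (27.2 and 55.4), Stra6 (49.3 and 77.7) and Pdzd2 (308 and 524) had the opposite order. Gsg1l (46.4 and 44.9 CPM), Spata13 (22.6 and 20.6) and Col6a1 (4.82 and 4.29) had none, and Penk had 5 UMIs in each subset. These sums pool the mice and have no error, and the difference between the subsets was not tested.

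Dsp and Lct were detected together in 159 selected nuclei (8.17%) and in 1713 of the other granule nuclei (4.75%). The other granule nuclei were shallower (median 6567 against 9663 UMIs), so these shares do not compare the classes at equal depth. Beside matched granule nuclei, as given above, Lct was lower in most mice and Dsp was close to level. These 159 nuclei had a median of 11350 UMIs, above the 9663 of all selected nuclei. They held 39.7 CPM of Ano2, 38.8 of Scn9a, 47.0 of Nhs and 36.5 of Tox3, all below the sums in the subset with Trhr and without Lgr6. The conditions of the selection thus let in nuclei with genes of the dorsal pair.

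Other granule nuclei with both Dsp and Lct, chosen by those genes, were drawn within the same ranges of UMIs as the matched nuclei. Only 31 stood beside 110 selected nuclei in long-term replicate 3. Their median UMIs were below those of the selected nuclei in every library (7871.5 against 9419.5 in long-term replicate 1). Apart from the selecting genes, differences were ranked among genes higher in every mouse with a mean of at least 20 CPM in the selected nuclei. The largest positive ones were those of Kcnmb2 (81.5 against 14.4 CPM, 2.19 ± 0.85), Sgcz, a sarcoglycan (525 against 138, 2.07 ± 0.99), Ano2 (74.4 against 14.8, 2.01 ± 0.46), Nhs (1.84 ± 0.48) and Adamts18, a metalloprotease (1.81 ± 0.62). For the ventral list, neither the floor of 20 CPM nor a difference of 0.5 was asked here. Nr2f2, Grp and Resp18 were below that floor. The comparison nuclei were also chosen by genes of the dorsal list, so the count that follows and the one beside matched nuclei do not compare. Of the 10 genes of the ventral list, 6 were higher in 13 of 13 mice, beside 1.14% of all 22349 genes with a UMI in the selected nuclei and 3.25% of the 6394 at the floor. They were Nr2f2 at 19.9 against 5.32 CPM (1.26 ± 0.59), Tox3 at 75.1 against 29.3 (1.25 ± 0.29), Efnb2 at 27.6 against 11.2 (1.01 ± 0.41) Lypd1 at 124 against 69.4 (0.79 ± 0.33), and, at low levels, Grp at 9.14 against 2.99 (0.83 ± 0.31) and Resp18 at 7.95 against 2.39 (0.78 ± 0.30). Dcn was higher in 10 mice (0.40 ± 0.75), while Cadm2 was lower in 13 of 13 mice (-0.43 ± 0.08), Nrp2 in 11 (-0.13 ± 0.18) and Cck in 9 (-0.06 ± 0.36). Lower genes were ranked likewise, with a mean of at least 20 CPM in the Dsp and Lct nuclei. Apart from Dsp and Lct themselves, the largest negative differences among genes lower in every mouse were those of Syndig1 (-1.20 ± 0.49), Gm48530 (-1.11 ± 0.42) and Stat3 (-0.91 ± 0.42). Spata13 (-0.70 ± 0.36, lower in 12 of 13 mice) and Gsg1l (-0.45 ± 0.37, lower in 11) differed less from these nuclei than from matched granule nuclei. Pdzd2 (-0.51 ± 0.34, lower in 12 mice) and Stra6 (-0.48 ± 0.31, lower in 11) differed more, and Col6a1 (0.11 ± 0.44) and Penk (-0.26 ± 0.35) were low on both sides.

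Depth sets how often weak genes are seen, so the co-detection of the 4 genes was read after thinning each granule nucleus to a fixed number of UMIs. Gmnc was then seen in 8.93% of 1254 nuclei with Trhr and in 3.53% of 23270 without, and the share was higher with Trhr in 12 of 13 mice. Lgr6 was seen in 6.30% with Trhr and 3.44% without (higher in 11 of 13 mice). P2rx5 was seen in 3.86% of nuclei with Gmnc and 1.37% without (13 of 13 mice). Pairs of Lgr6 with the other 2 genes were closer to level. Lgr6 was seen in 4.50% of nuclei with Gmnc and 3.55% without (higher in 7 of 13 mice), and in 4.18% with P2rx5 and 3.58% without (9 of 13 mice).

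The share of Trhr/Lgr6 granule nuclei among granule nuclei was compared after thinning each nucleus to 3000 UMIs and leaving out shallower nuclei (the granule conditions and the selection were then applied anew to the thinned counts; left out were 655 of 7668 in old ad libitum, 704 of 10320 under long-term restriction, 841 of 10209 under acute restriction and 796 of 9776 in young mice). Young libraries gave 1.49%, 0.875% and 0.510%, and old ad libitum libraries gave 0.846%, 0.476% and 1.01%. Acute restriction gave 1.14%, 0.445% and 0.970%, and long-term restriction gave 1.30%, 0.866%, 1.54% and 0.850%. Every pair of groups overlapped. The counts behind these shares were 5 to 32 nuclei per library, so a single library's 95% Wilson interval was wide, as 0.362 to 1.97% for old ad libitum replicate 1. Counting error alone is covered by these intervals.

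No group differed in this share beyond the spread between mice. The means were 0.958% ± 0.496 in young (SD, n = 3), 0.779% ± 0.275 in old ad libitum (n = 3), 0.853% ± 0.364 under acute restriction (n = 3) and 1.14% ± 0.338 under long-term restriction (n = 4). As log2 odds, old minus young ad libitum was -0.20 (exact two-sided permutation p = 0.8, the smallest possible being 0.1). Long-term restriction minus old ad libitum was 0.54 (exact permutation p = 0.286, smallest possible 0.0286), acute restriction 0.06 (exact p = 0.8) and long-term minus acute 0.48 (exact p = 0.314). All 10 old mice against 3 young mice gave 0.04 (exact p = 0.92), and adjusted p over the 5 comparisons was 0.786 to 0.92. Without thinning the means were 4.25% ± 3.01, 6.83% ± 2.88, 4.72% ± 2.47 and 6.57% ± 1.88, and the ageing difference turned to 0.86 (exact p = 0.3), with old libraries that were also the deeper ones. Nuclei of other types that met the same 4-gene conditions after thinning to 3000 UMIs were few: 1 of 1348 oligodendrocytes (0.0742%), 5 of 3818 astrocytes (0.131%), 2 of 12622 CA1 neurons (0.0158%) and 0 of 3865 inhibitory neurons (95% Wilson upper bound 0.0993%), against 0.984% of 34977 granule nuclei. Types, granule nuclei included, were set here on the counts before thinning. Nuclei below 3000 UMIs were left out, which kept 1348 of 8517 oligodendrocytes and 3818 of 8207 astrocytes. Lgr6 alone was seen in 4.24% of astrocytes, close to its 3.62% in granule nuclei, with median depths of 4224 and 6974 UMIs before thinning. Fewer cells of a kind and fewer detected transcripts per cell cannot be told apart in these shares.

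**Figure D3:**
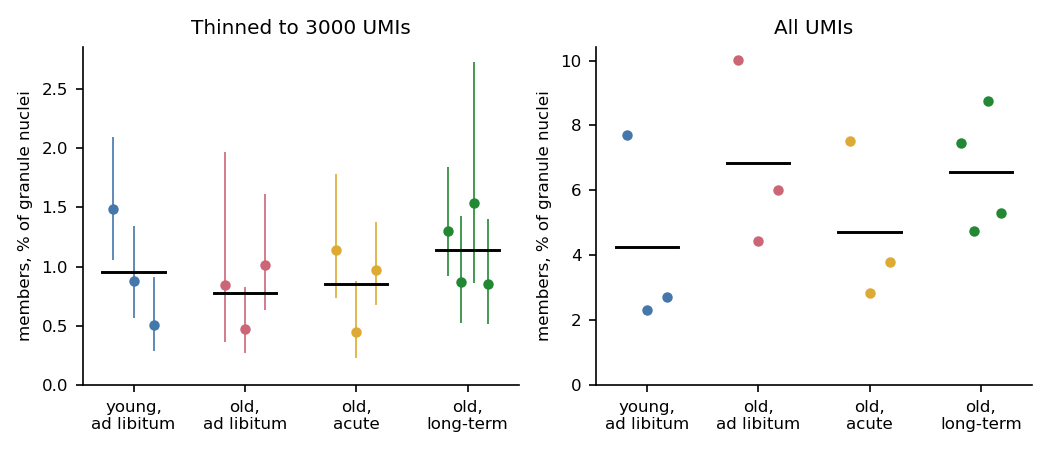
Selected nuclei (members) as a percentage of granule nuclei in each of 13 libraries, after thinning to 3000 UMIs (left, bars are 95% Wilson intervals) and with all UMIs (right, no intervals drawn). Black lines are group means, which run from 0.779% to 1.14% on the left and from 4.25% to 6.83% on the right, and the libraries of every pair of groups overlap in both panels.

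The selecting genes themselves were tested in the summed counts of all granule nuclei, where no selection on them applies. None of the 16 tests (4 genes, 4 comparisons) passed an adjusted p of 0.05 in edgeR's quasi-likelihood test over 17523 genes, of which 56 (0.32%) passed with age. Gmnc came nearest, with 26.2, 21.2 and 17.8 CPM in young mice and 14.5, 11.7 and 14.0 in old mice fed ad libitum. These groups did not overlap, and the log2 fold change was -0.70 ± 0.22 (SE) at an adjusted p of 0.107 (edgeR), while DESeq2 gave -0.70 at an adjusted p of 0.0416. Gmnc with age also passed in edgeR when the libraries numbered 1, or all replicate numbers, entered the fit as terms. Its values under restriction were 12.1, 8.81 and 10.95 CPM (acute) and 19.1, 10.7, 15.1 and 11.55 CPM (long-term).

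Trhr stood at 30.1, 17.9 and 11.9 CPM in young and 24.1, 17.1 and 29.6 in old ad libitum mice (0.23 ± 0.38, adjusted p = 0.712, edgeR), and the groups overlapped. Lgr6 stood at 13.4, 8.15 and 9.17 CPM in young and 12.3, 13.8 and 11.6 in old ad libitum mice (0.29 ± 0.25, adjusted p = 0.472, edgeR). Under long-term restriction Lgr6 stood at 17.6, 14.2, 19.7 and 15.95 CPM, without overlap with the old ad libitum values, at a log2 fold change of 0.42 ± 0.24 (adjusted p = 0.999, edgeR). Its acute values were 25.1, 12.7 and 13.4 CPM. P2rx5 differed with age by 0.15 ± 0.32 (adjusted p = 0.778, edgeR).

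With age, 37 of 11167 genes tested (0.331%) changed in the summed counts of the selected nuclei between young and old mice fed ad libitum, 31 of them higher (0.278%) and 6 lower (0.0537%). The values of all 37 genes did not overlap between the groups, as for 19.5% of all genes tested. The balance of directions depended on the fit. DESeq2 called 166 genes, 100 higher and 66 lower. A term for the libraries numbered 1, whose deviations from their group means correlated across groups, gave 452 calls, 167 higher and 285 lower, and leaving out young replicate 1 gave 249, 82 higher and 167 lower. All 37 genes were among the calls of DESeq2 and of the fit with the term, and 35 among those without young replicate 1. The genes with the smallest p-values in each direction follow.

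Nrg1, the growth factor neuregulin 1, was at 442, 332 and 405 CPM in young and at 1057, 995 and 1103 in old mice. It rose by 1.41 ± 0.14 on the log2 scale (adjusted p = 1.2e-05, edgeR). Under acute restriction it was at 874, 873 and 999 CPM and under long-term restriction at 887, 652, 980 and 888, above every young library. Grm8, a presynaptic metabotropic glutamate receptor, was at 72.6, 70.8 and 55.3 CPM in young and at 261, 154 and 190 in old mice, a rise of 1.59 ± 0.20 (adjusted p = 0.00108, edgeR). Camk2d, a subunit of calcium/calmodulin-dependent kinase, rose by 1.29 ± 0.19 from 71.4, 49.2 and 56.6 to 180, 151 and 124 CPM (adjusted p = 0.0061, edgeR). For all 3 genes every old library lay above every young one.

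The cadherin gene Cdh18 rose by 1.32 ± 0.22 from 33.8, 21.6 and 25.7 to 92.3, 74.8 and 50.3 CPM, and Pde4b, a phosphodiesterase that breaks down cyclic AMP, by 1.28 ± 0.21 from 50.5, 61.0 and 73.3 to 157, 162 and 117 CPM (both adjusted p = 0.00939, edgeR). Maml2, a coactivator of Notch, rose by 0.72 ± 0.12 from 932, 958 and 790 to 1424, 1582 and 1411 CPM (adjusted p = 0.00844, edgeR). Weaker p-values were found for Tmem178b (0.90), the zinc finger factor Zbtb16 (0.70), the presynaptic adhesion gene Nrxn3 (0.75) and Ntm, neurotrimin (0.79), with adjusted p of 0.0184 to 0.0221 in edgeR. Among lower genes, Mettl23, a methyltransferase, was at 99.4, 102 and 126 CPM in young and at 47.6, 54.5 and 46.3 in old mice (-1.13 ± 0.18, adjusted p = 0.00825, edgeR).

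Tmem126a, a mitochondrial membrane protein, was at 51.2, 86.5 and 65.6 CPM in young and at 30.6, 32.7 and 30.5 in old mice (-1.04 ± 0.20, adjusted p = 0.0221, edgeR). The other lower genes were Gm28370 (-1.82), the co-chaperone gene Dnaja2 (-0.90), the ribosomal protein gene Rpl13 (-0.84) and Uckl1os (-1.22). Rpl13 has processed copies in the genome. Uckl1os is an antisense transcript, and whether counting used the strand is not known here, so both counts are uncertain. The lower genes were short and the higher ones long, with a median annotated span of 6.61 kb over the 6 lower, 411 kb over the 31 higher and 31.6 kb over all tested genes that had a span (11159 of 11167).

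**Figure D4:**
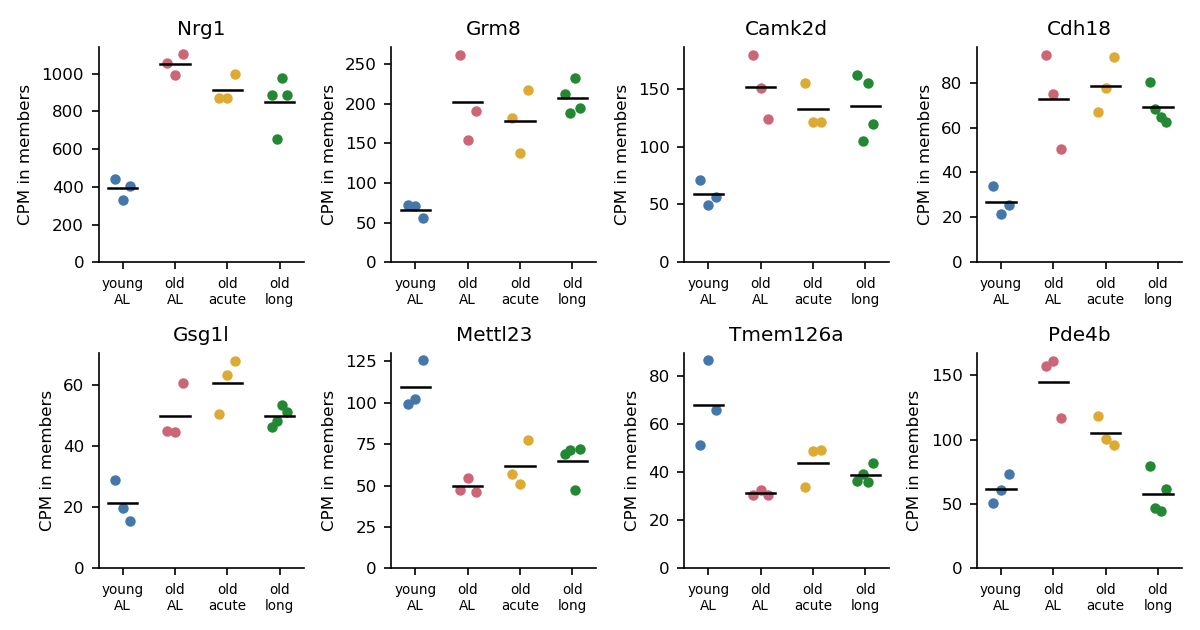
CPM of 8 genes in the summed counts of the selected nuclei, 1 point per library in the 4 groups (AL, ad libitum; acute and long, acute and long-term restriction), with black lines at the group means. Nrg1, Grm8, Camk2d, Cdh18 and Gsg1l are higher and Mettl23 and Tmem126a lower in all old ad libitum than in all young libraries, and Pde4b is lower under long-term restriction than in old ad libitum libraries.

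Of all 11167 genes tested, 0.331% passed with age and 885 were higher at an unadjusted p below 0.05. Of the genes that set the selected nuclei apart, none of the 15 with the largest positive and 2 of the 15 with the largest negative differences changed, and their medians were 0.09 and 0.76 beside -0.02 over all genes tested. The 2 were Cdh18 and Tox (18.2, 13.8 and 18.01 CPM in young, 34.0, 48.5 and 41.2 in old mice, 1.25 ± 0.27, adjusted p = 0.0473, edgeR). None of 10 ventral-list genes changed (median -0.08), and of 7 dorsal genes 1 did (median 0.88): Gsg1l rose by 1.10 ± 0.21 from 28.7, 19.7 and 15.4 to 44.7, 44.6 and 60.5 CPM (adjusted p = 0.0221, edgeR). Higher at an unadjusted p below 0.05 were 4 of the 7 dorsal and 0 of the 10 ventral genes. So were 4 of the 15 genes with the largest negative and 2 of the 15 with the largest positive differences. Both Tox and Gsg1l also were lower in the selected than in the matched nuclei. When at least 3 UMIs of Trhr, Lgr6 and Gmnc were required, none of Cdh18, Tox and Gsg1l passed (1.36, 0.44 and 0.84). Their adjusted p was then 0.174, 0.80 and 0.228 (edgeR). Without selected nuclei that held oligodendrocyte UMIs, Tox missed the threshold (1.02, adjusted p = 0.173, edgeR), while Cdh18 and Gsg1l passed (0.0493 and 0.0245). With marked doublets removed each passed, Tox at 3.48.

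Of all 11167 genes tested 0.331% passed, and 885 were higher and 842 lower at an unadjusted p below 0.05. In the signalling lists, Prkca, a protein kinase C downstream of Trhr, was the 1 of 11 genes that passed (0.71 ± 0.15, adjusted p = 0.034, edgeR), and 0 of 14 R-spondin and Wnt genes did. Prkca missed the threshold without selected nuclei that held oligodendrocyte UMIs (0.66, adjusted p = 0.0795, edgeR). It passed with doublets removed and with the stricter selection (adjusted p = 0.042 and 0.047, edgeR). In matched nuclei Prkca changed by 0.56 (adjusted p = 0.0702, edgeR). Without adjustment, 7 of the 11 were higher at p below 0.05 and 0 lower (median 0.45), against 0 of the 14 in either direction. Of 22 glutamate receptor genes 1 passed as higher (Grm8), of 27 potassium channel genes 1 (Kcnq3, 0.72), of 44 adhesion and guidance genes 2 (Cdh18 and the semaphorin receptor gene Nrp1, 0.56), of 15 clock genes 1 (Rora, 0.65) and of 11 glucocorticoid genes 1 (Zbtb16). In the same order, 8, 8, 18, 4 and 1 genes of these lists were higher at an unadjusted p below 0.05. Lower at that p were 1, 1, 1, 0 and 1. None of 13 GABA receptor and 5 neuropeptide genes passed. Of 12 genes listed because these samples had shown them to change with age, 3 passed (Camk2d, Grm8 and Mettl23), which is no independent evidence of their direction.

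Markers of other cells and depth moved with age as well. The summed oligodendrocyte markers in the selected nuclei were 232 to 355 CPM in young and 370 to 412 CPM in old ad libitum mice, without overlap, and 0 of 6 tested markers passed (median log2 change 1.06). Of 6 tested astrocyte markers 0 passed as well, 3 were higher at an unadjusted p below 0.05 as were 3 of the oligodendrocyte markers, and their median was 0.78, although their sum, carried by Slc4a4, overlapped between the groups (900 to 1200 and 988 to 1288 CPM). Over all 11167 genes tested, 885 were higher at that unadjusted p. The inhibitory sum, carried by Adarb2, did not overlap (1257 to 1573 and 1647 to 1681 CPM), with a median of 0.05 over the 2 tested genes. Subicular and cortical markers had a median of 0.61 with 0 of 6 passing, and their sums overlapped (389 to 536 and 490 to 851 CPM). Microglial markers went the other way, with a median of -1.24, 0 of 4 passing and sums of 55.3 to 258 and 42.9 to 61.7 CPM. For 4 tested CA1 markers the median was 0.75 with 0 passing. Without selected nuclei that held oligodendrocyte UMIs, 26 genes were called, 24 of them among the 37, and Pde4b missed the threshold (0.86, adjusted p = 0.409, edgeR; with doublets removed 4.11, adjusted p = 0.147). With the median UMIs of the selected nuclei as a covariate, only Nrg1 was called (1.15, adjusted p = 0.025, edgeR), and all 37 genes kept their sign. Leaving out old ad libitum replicate 1 or 2 left 4 or 5 calls, leaving out young replicate 2 or 3 left 7 or 11, and leaving out long-term replicate 3 gave 76.

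Matched granule nuclei changed in the same direction. In their sums 88 of 14827 genes (0.594%) changed with age, among them 21 of the 37, and the fold changes of all 37 had the same sign there. Nrg1 changed by 1.30 ± 0.17, Grm8 by 1.28 ± 0.20, Camk2d by 1.21 ± 0.13 and Mettl23 by -1.29 ± 0.25 in matched nuclei. None of the 37 passed the test of the difference between selected and matched nuclei. The matched and selected nuclei came from the same libraries, so this is not a second set of mice.

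**Figure D5:**
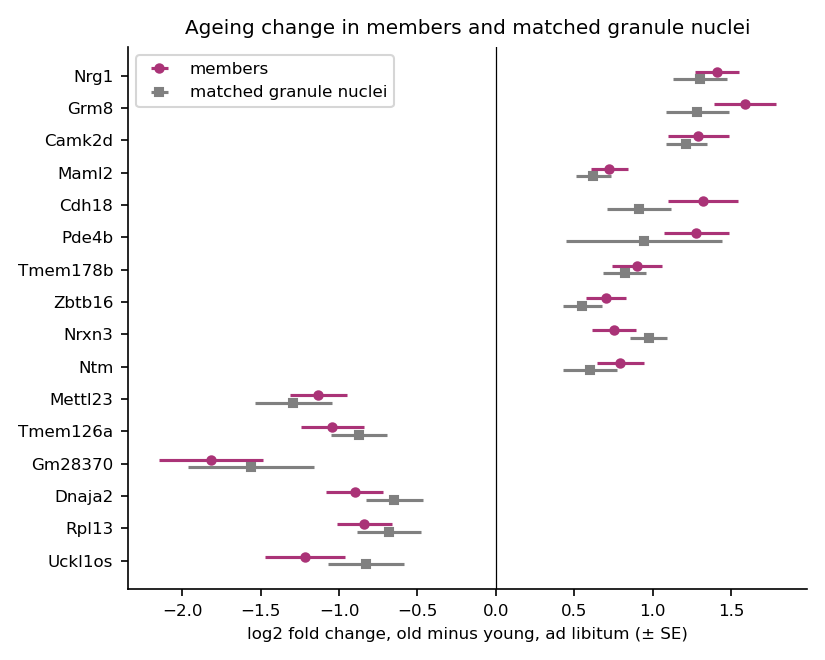
Log2 fold change with age (old minus young, both ad libitum) ± SE from edgeR for the 10 higher and 6 lower genes with the smallest p-values in the selected nuclei (members, circles), beside the same genes in matched granule nuclei of the same libraries (squares). Every pair of symbols lies on the same side of 0, as for Nrg1 at 1.41 and 1.30.

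The test of the difference itself found 2 of 12997 genes (0.0154%) whose change with age differed between selected and matched nuclei. Tmeff2, a transmembrane protein with follistatin domains, was at 1001, 763 and 1194 CPM in young and 999, 920 and 1157 in old selected nuclei, and at 922, 716 and 1084 and then 1156, 1163 and 1360 CPM in matched nuclei. Its change was 0.05 in selected and 0.43 in matched nuclei, a difference of -0.34 ± 0.07 (adjusted p = 0.0395, edgeR). For 9530026P05Rik the young and old libraries overlapped in the selected nuclei. Its change was 0.42 in selected against 1.10 in matched nuclei, a difference of -0.62 ± 0.12 (adjusted p = 0.0263, edgeR). The call of Tmeff2 was lost without any 1 of young replicates 1 and 3, old ad libitum replicates 2 and 4, acute replicate 1 and long-term replicates 3 and 4 (adjusted p of 0.0517 to 0.333). That of 9530026P05Rik was lost without young replicate 1 or 3 (0.186 and 0.0572) and with doublets removed (0.672). Both calls were lost with a replicate block (adjusted p = 0.214) and when all other granule nuclei took the place of the matched ones (0.622 for Tmeff2 and 0.0814 for 9530026P05Rik, edgeR).

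Long-term restriction changed 1 of 11167 genes (0.00895%) in the selected nuclei of old mice. Pde4b was at 157, 162 and 117 CPM in old ad libitum mice and at 79.7, 46.9, 44.2 and 61.3 under long-term restriction, without overlap, and it fell by 1.29 ± 0.18 on the log2 scale (adjusted p = 0.00699, edgeR). Under acute restriction Pde4b was at 119, 101 and 95.6 CPM, which overlapped the old ad libitum values. The gene is also expressed in oligodendrocytes, whose summed markers were 370 to 412 CPM in old ad libitum and 291 to 386 CPM in long-term restricted selected nuclei. Of 6 tested oligodendrocyte markers 0 passed, 3 were lower at an unadjusted p below 0.05, and the median log2 change was -1.12. Without selected nuclei that held oligodendrocyte UMIs, its change was -0.77 (adjusted p = 1, edgeR), and with doublets removed it was -2.06 (adjusted p = 0.9998). The call was also lost, at changes of -1.21 to -1.31, without old ad libitum replicate 1 or 2 or long-term replicate 2 or 4. DESeq2 called the same gene alone, and 455 genes had an unadjusted p below 0.05 in edgeR.

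Acute restriction changed 0 of 11167 genes (0.0%) in edgeR and 0 in DESeq2, with 462 at an unadjusted p below 0.05. The smallest p belonged to D10Wsu102e, at 87.8, 89.2 and 85.4 CPM in old ad libitum and 42.9, 57.6 and 52.1 under acute restriction (-0.80 ± 0.16, adjusted p = 0.494, edgeR). Zfp407, a zinc finger gene (-0.55 ± 0.12), and Gm34667 (-1.45 ± 0.34) followed at an adjusted p of 0.64. In matched nuclei D10Wsu102e differed by -0.59 ± 0.14 (adjusted p = 0.695, edgeR).

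Between the regimens, 1 of 11167 genes (0.00895%) changed. Col11a1, a fibrillar collagen chain, was at 2.26, 2.84, 2.29 and 2.41 CPM under long-term restriction and 17.9, 32.1 and 10.9 CPM under acute restriction, a log2 difference of -2.96 ± 0.44 (adjusted p = 0.0115, edgeR). These values rest on 3 to 6 and 18 to 35 UMIs per library. In matched nuclei the values were 9.51, 4.19, 7.76 and 2.04 against 12.2, 18.5 and 5.07 CPM and overlapped, and the difference between selected and matched nuclei was -2.11 ± 0.41 (adjusted p = 0.0389, edgeR), the 1 call of 12997 (0.00769%). The call in the selected nuclei was lost without acute replicate 1 or 2, without any 1 of the long-term libraries, without doublets and without nuclei that held oligodendrocyte UMIs. The call of the difference was lost with doublets removed (-0.69), with a replicate block (adjusted p = 0.13) and without any 1 of the acute replicates, long-term replicates 1 and 3 or young replicate 2 (adjusted p of 0.065 to 0.83 in edgeR).

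For the other comparisons of selected with matched nuclei, 0 of 12997 genes (0.0%) differed in their response to long-term restriction (568 at an unadjusted p below 0.05) and 0 to acute restriction (623), both in edgeR alone. The smallest p-values belonged to Cst3 (-0.74 ± 0.16), Rerg (0.64 ± 0.15) and Kctd16 (0.23 ± 0.05) under long-term restriction, with adjusted p of 0.188 to 0.28 in edgeR. Under acute restriction they belonged to Kcnh8 (-3.29 ± 0.67, adjusted p = 0.129, edgeR), at 1 to 2 UMIs per library in the acute group, Mapk4 (0.57 ± 0.13) and Sc5d (1.10 ± 0.29). None of the 15 genes with the largest positive or the 15 with the largest negative differences from matched nuclei passed under either regimen.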

How the data were processed

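Nuclei of frozen hippocampus were sequenced as 13 libraries. The deposited values are UMI counts of 32285 genes per barcode, made by the authors with Cell Ranger 4.0.0, per the file headers and the submitters' processing notes, which also name mm10. Whether introns and strand entered the counting is not given in the sources used here. The selected nuclei and the gene lists were chosen with earlier results of these data known.

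Of 105759 barcodes, 105427 were retained. Counts of the selected nuclei, of matched granule nuclei (up to 5 per selected nucleus, in UMI bins of 0.25 on the log2 scale) and of all granule nuclei were summed per library. Sums were tested with edgeR 4.0.16 (quasi-likelihood, TMM scaling, Benjamini-Hochberg adjustment, called below 0.05) in R 4.3.3, with all 4 groups in one fit. Named genes are the 10 of smallest adjusted p in each direction among called genes without overlap (5 for differences from matched nuclei), all called genes where fewer, and the 3 of smallest p where none was called. Described differences were ranked among genes of the same direction in 13 of 13 mice with at least 20 CPM on average in the higher class. The 15 of largest mean difference in each direction from matched nuclei were named, and 5 in each direction from Dsp and Lct nuclei. The 12 genes of the selection were left out of tests of the selected nuclei. CPM by group are TMM-scaled, and CPM beside matched nuclei are not. Shares were compared by exact two-sided permutation tests over all splits of the mice, and their Wilson intervals were made in scipy 1.17.1. Doublets were marked by rank of their Scrublet score in scanpy 1.11.5, at a preset number per library, and kept in the main analysis. The scripts were tested on simulated data. Alternatives were DESeq2 1.42.0, no filter on low counts, other thinning depths, a stricter selection (3 UMIs), doublets removed, covariates and leaving out each library. Alternatives that leave out nuclei with oligodendrocyte UMIs or ask for 4 granule genes were chosen after seeing the data. The count of nuclei with oligodendrocyte UMIs is not reported here.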

Additional observations from a re-analysis of the deposited data

Results flagged for a closer look

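In the selected nuclei, Mettl23 under long-term restriction stood apart in replicate 3, at 47.3 CPM beside 68.8, 71.7 and 72.2 CPM in the other libraries. The gap was 0.864 of the range, above the 95% limit of Dixon's test for 4 samples, and chance flags about 1 in 20 of the 59 groups examined.

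The change with age differed between selected and matched granule nuclei by -0.34 for Tmeff2 (adjusted p = 0.0395, edgeR) and by -0.62 for 9530026P05Rik (adjusted p = 0.0263, edgeR). The difference between long-term and acute restriction was -2.11 as selected minus matched, that is lower in selected than in matched nuclei for Col11a1 (adjusted p = 0.0389, edgeR).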

How the results depend on the processing

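Counts of calls moved with the processing. For ageing in the selected nuclei the 37 calls became 166 with DESeq2, 387 with no filter on low counts, 452 with libraries numbered 1 as a term, 1 with median UMIs as a covariate and 18 with the stricter selection (4 to 249 when 1 library was left out). For long-term restriction the 1 call became 12 with no filter, 2 with number 1 as a term and 0 with doublets or nuclei with oligodendrocyte UMIs removed (0 to 1). For acute restriction the 0 calls became 14 with no filter (0 to 0). Between regimens the 1 call became 3 with no filter and 0 with doublets removed, with nuclei holding oligodendrocyte UMIs removed or with the stricter selection (0 to 1).

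For differences from matched nuclei, no filter gave 15 calls for ageing, 2 for long-term and 5 for acute restriction, doublet removal 8, 3 and 4, and comparison nuclei without oligodendrocyte UMIs 6, 9 and 5. Leaving out 1 library gave 0 to 7 calls in each of these and 0 to 6 between regimens.

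The replicate numbers were not taken as a pairing: deviations of libraries numbered 1 correlated at 0.20 to 0.53, which shows that these libraries shared a deviation across groups, but other same-numbered libraries only at -0.07 to 0.16. What number 1 marks is not given in the sources used here. With the replicate block there were 394 calls for ageing (166 higher, 228 lower) and 2 for acute restriction in the selected nuclei. For differences from matched nuclei the block gave 0 calls for ageing, 1 for acute restriction and 0 between regimens.

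Log2 odds of the share turned without thinning for ageing (0.86), long-term (-0.024) and acute restriction (-0.61), without libraries numbered 1 for ageing (0.059) and acute restriction (-0.076), and with thinning to fewer UMIs between regimens (-0.20). All old against young gave -0.33 with thinning to fewer and -0.39 with thinning to more UMIs and -0.055 with doublets removed. Leaving out 1 library gave -0.58 to 0.18 for ageing, 0.21 to 0.75 for long-term, -0.27 to 0.46 for acute restriction, 0.081 to 0.74 between regimens and -0.34 to 0.42 for all old against young. No comparison of shares passed the threshold, which those of 3 mice against 3 could not reach. Those of 4 mice against 3 could not go below an exact permutation p of 0.0286 before adjustment over 5 comparisons. They therefore had little room to pass.

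Of the 16 tests of the selecting genes, 1 (Gmnc with age) passed with DESeq2, with number 1 as a term and with the replicate block, and 0 to 0 when 1 library was left out. Lgr6 between regimens turned to 0.063 with number 1 as a term and 0.061 with the replicate block (-0.19 to 0.36 without 1 library). Signs also turned without 1 library for Trhr with age (-0.032 to 0.66), long-term (-0.038 to 0.35) and acute restriction (-0.58 to 0.078), P2rx5 with age (-0.072 to 0.42) and acute restriction (-0.38 to 0.18), and Gmnc under long-term restriction (-0.11 to 0.19). Genes higher beside all other granule nuclei, not matched, numbered 95 in place of 62. The cause of these changes was not tested.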
